A study of Mus musculus with 40 samples.

Results

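The 10 genes described here belong to the BCL2 family, whose proteins decide whether a cell's mitochondria are opened during programmed cell death. They are the pro-survival genes Bcl2, Bcl2l1 and Mcl1, the effector genes Bak1 and Bok, and the BH3-only genes Bcl2l11, Bmf, Bid, Bad and Bik. They were chosen by gene name and make up 10 of the 53465 gene identifiers in a table of RNA sequencing counts. The RNA came from mouse bladder urothelial cells, the lining cells of the bladder, grown as organoids. In the libraries labelled dKO both Kmt2c and Kmt2d, genes for histone methyltransferases that act mainly at enhancers, are named as knocked out, and the other libraries are wild type (WT). Cells of each genotype were given either MI-503 at 1 µM for 4 days or the solvent DMSO. The compound MI-503 keeps menin from binding KMT2A, another histone methyltransferase. There were 2 libraries in each of 4 groups: dKO with MI-503, dKO with DMSO, WT with MI-503 and WT with DMSO. The culture medium of all groups held EGF, Noggin, R-spondin, the kinase inhibitor Y-27632 and the TGF-beta receptor inhibitor A83-01. The labels do not say how the knockout was made, whether it is 1 clone, or whether the 2 libraries of a group came from separate cultures, so every p-value here measures only the spread between these libraries, which may be technical.

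BCL2 family proteins meet at the outer membrane of mitochondria. The effectors, once active, permeabilise that membrane, and cytochrome c leaks out and sets off the caspases. Pro-survival members bind the effectors and the BH3-only proteins and hold them in check, while BH3-only proteins, which are switched on by different kinds of damage or stress, occupy the pro-survival members or act on the effectors directly. In many epithelia BCL-xL, the product of Bcl2l1, and MCL-1 are the main guards. Much of the control of these proteins happens after transcription, by cleavage, phosphorylation or degradation, and RNA counts do not measure it.

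Values below are CPM, the counts of a gene per 1000000 counts of its library, scaled by TMM, a library-size correction. A gene rose or fell where edgeR's quasi-likelihood test gave a Benjamini-Hochberg adjusted p under 0.05 over the 16921 genes tested, and log2 fold changes are given with their standard error (SE). Library totals ran from 58113705 to 68571176 counts. In the check of the labels, Kmt2c averaged 28.2 ± 2.24 CPM in dKO with MI-503, 53.8 ± 2.08 CPM in dKO with DMSO, 61.0 ± 0.98 CPM in WT with MI-503 and 110.5 ± 0.475 CPM in WT with DMSO (SD, n = 2 each). Its log2 fold change between the genotypes under DMSO was -1.04 (SE 0.0591, adjusted p = 2.6e-09). Kmt2d did not follow its label, at 95.3 ± 12.4 CPM in dKO with MI-503, 122.3 ± 15.7 in dKO with DMSO, 70.8 ± 7.15 in WT with MI-503 and 91.0 ± 6.26 in WT with DMSO. It was higher in dKO than in WT under DMSO (log2 fold change 0.43, SE 0.0983, adjusted p = 0.00166). Counts taken over whole genes do not reveal whether single exons were lost. The summed markers of basal urothelium stood at 17100 to 19000 CPM in dKO with MI-503 and 18300 to 19900 in dKO with DMSO. In WT they stood at 11100 to 11700 CPM with MI-503 and 7570 to 8200 with DMSO. Krt5 made the largest part of the sum, and all 5 markers were higher in dKO than in WT in both treatments. With MI-503 in WT 3 of them rose, while Krt14 (log2 -0.41) and Trp63 (-0.96) fell. With MI-503 in dKO, Cd44 rose (0.39), Itga6 (-0.76) and Trp63 (-0.83) fell, and 2 did not pass. Markers of differentiated urothelium summed to 108 to 113 CPM in dKO with MI-503, 150 to 158 in dKO with DMSO, 102 to 110 in WT with MI-503 and 140 in WT with DMSO. Upk1b made up most of that sum, and the minor members moved in both directions for dKO against WT under DMSO, with log2 fold changes of 5.07 for Krt20, 3.18 for Upk3a and -1.67 for Upk1a. Of 6 fibroblast markers, Col1a2, Dcn and Lum were at 0 in all 8 libraries. The list summed to 7.78 to 8.49 CPM in dKO with MI-503 and 3.53 to 4.15 in dKO with DMSO. In WT it summed to 1.30 to 1.54 CPM with MI-503 and 0.977 to 1.24 with DMSO. Pdgfra carried this sum and was higher in dKO, by a log2 fold change of 2.54 in MI-503 and 1.77 in DMSO. Col1a1 was also higher in dKO (1.88 in MI-503, 2.60 in DMSO), at group means of at most 0.262 CPM. Col3a1 reached at most 0.0371 CPM. The 5 smooth muscle markers summed to 7.60 to 7.63 CPM in dKO with MI-503, 1.25 to 1.43 in dKO with DMSO, 40.3 to 42.8 in WT with MI-503 and 3.16 to 4.17 in WT with DMSO. Acta2 carried this sum, averaging 7.14 CPM in dKO with MI-503, 0.988 in dKO with DMSO, 40.8 in WT with MI-503 and 3.20 in WT with DMSO. The group means of the other 4 reached at most 0.454 CPM for Des, 0.328 for Myh11, 0.0907 for Tagln and 0.0162 for Cnn1. With MI-503 in WT, Des also rose at this low level (log2 3.42, SE 0.637, adjusted p = 0.000274). Myh11 did not pass there (log2 -0.48, adjusted p = 0.343), and Tagln and Cnn1 had too few counts to be tested. Endothelial markers summed to at most 0.195 CPM and immune markers to at most 0.263 CPM. Genes of the endoplasmic reticulum (ER) stress response took 0.169 and 0.170% of scaled counts in dKO with MI-503, 0.373 and 0.366% in dKO with DMSO, 0.163 and 0.162% in WT with MI-503, and 2.92 and 3.14% in WT with DMSO. The WT DMSO libraries stand apart in this respect and enter 2 of the comparisons below and the genotype by drug difference. The part of these marker and stress differences in the results was not tested. In such bulk RNA, fewer cells of a type and less RNA per cell cannot be told apart.

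All 10 genes passed the filter on low counts. Bmf and Bik passed on the strength of 6 libraries in 3 groups and the other 8 genes were above the filter's level of 0.152 CPM in all 8 libraries. Bcl2l1 and Bik were highest in WT with MI-503 and lowest in dKO with DMSO, Bcl2 was highest in dKO with DMSO and lowest in WT with DMSO, and Bak1 and Bok were lowest in WT with DMSO. Mcl1 varied least. The spread of a gene between groups is given as the difference of its highest and lowest group mean on a log2 scale with an offset of 0.5 CPM. It was 2.54 for Bik and 2.26 for Bcl2l1, wider than in 94.8% and 93.0% of all genes tested. Bok (1.51), Bmf (1.17), Bak1 (1.02), Bcl2 (0.95), Bid (0.91), Bcl2l11 (0.86) and Bad (0.62) lay between. The place of Bmf depends on the offset, which shrinks the spread of genes with few counts. Without the offset, its mean log2 CPM ran from -4.06 in dKO with MI-503 to -0.40 in WT with MI-503. For Mcl1 it was 0.27, wider than in only 9.49% of genes.

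**Figure D1:**
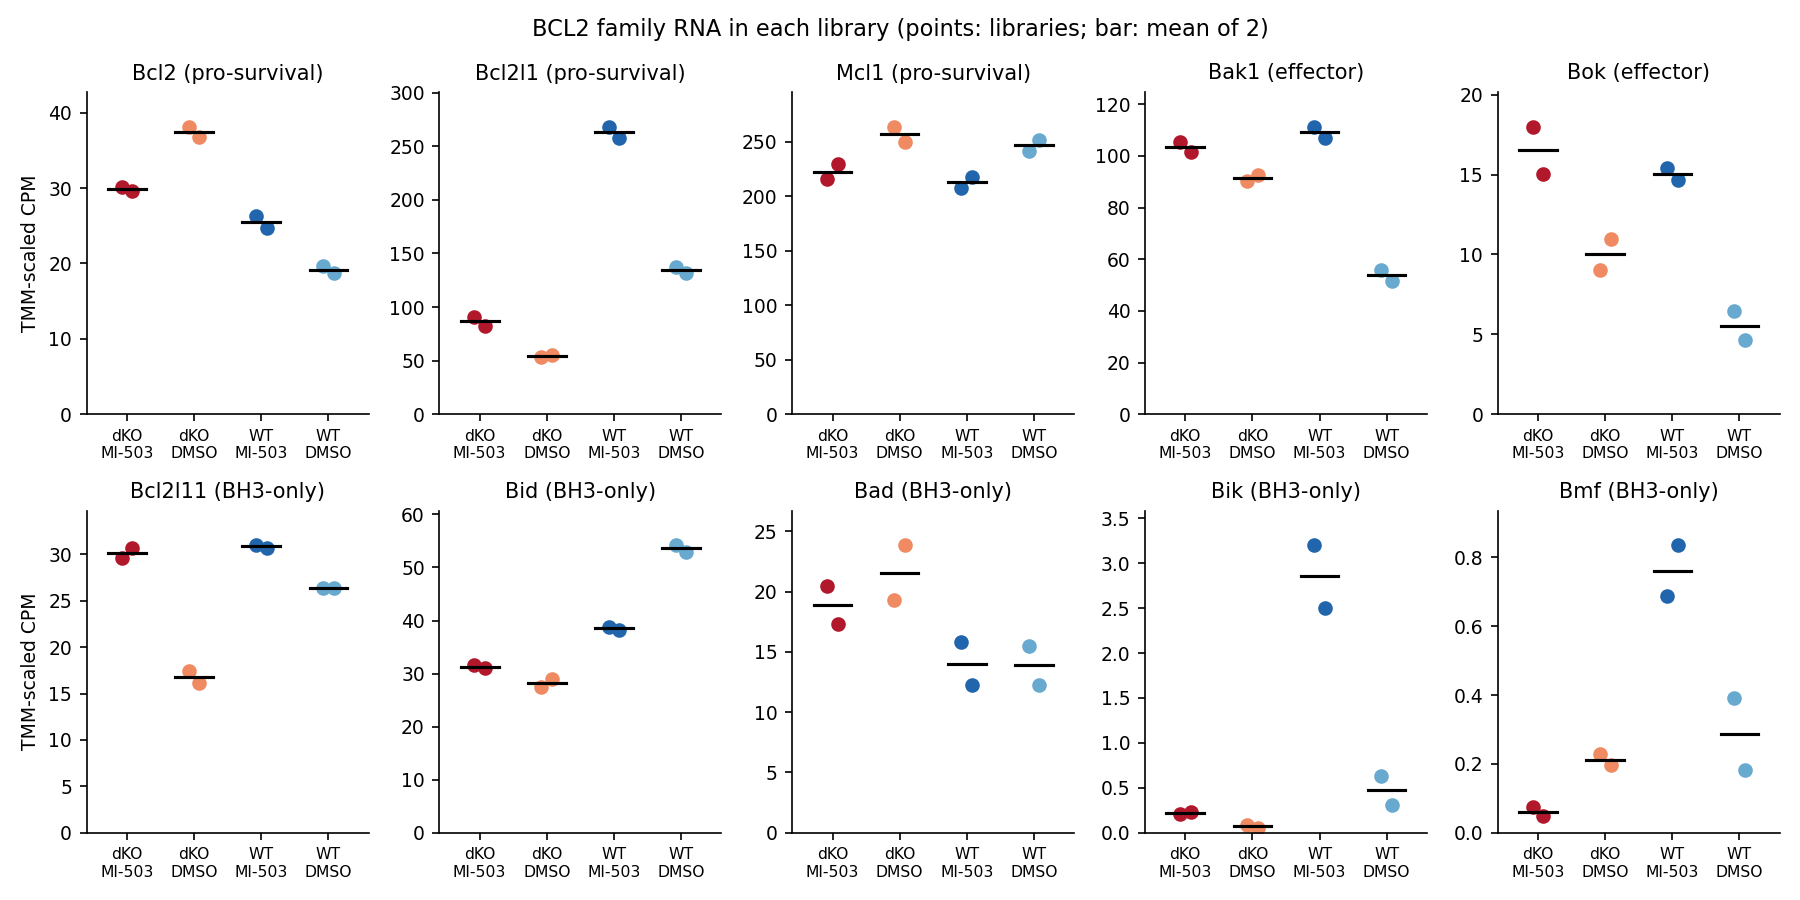
TMM-scaled CPM of the 10 genes in each of the 8 libraries, with 1 panel per gene and a vertical scale of its own. Points are libraries and short lines are group means (n = 2). Bcl2l1 stands at 258 and 268 CPM in WT with MI-503 and at 53.2 and 55.6 CPM in dKO with DMSO, while the Mcl1 libraries lie between 208 and 264 CPM.

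Bcl2 (ENSMUSG00000057329, GRCm38.p6 chromosome 1, 106538176 to 106714290) encodes the founding pro-survival protein. It measured 30.1 and 29.6 CPM in dKO with MI-503, 38.2 and 36.8 CPM in dKO with DMSO, 26.3 and 24.7 CPM in WT with MI-503, and 19.7 and 18.7 CPM in WT with DMSO. No 2 groups overlapped. Bcl2 was higher in dKO than in WT in both treatments, by a log2 fold change of 0.23 in MI-503 (SE 0.0635, adjusted p = 0.00775) and 0.97 in DMSO (SE 0.0643, adjusted p = 1.3e-08). The MI-503 call rests on a single library: without WT MI-503 replicate 2 the value was 0.19 with an adjusted p of 0.0908. MI-503 moved Bcl2 in opposite directions in the 2 genotypes. On the log2 scale it fell by 0.33 in dKO (SE 0.0625, adjusted p = 0.000499) and rose by 0.41 in WT (SE 0.0651, adjusted p = 6.51e-05).

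Bcl2l1 (ENSMUSG00000007659, chromosome 2, 152758732 to 152833803) encodes the long pro-survival form BCL-xL and, by splicing, a shorter form that promotes death, and gene counts do not tell these apart. Its libraries held 91.1 and 82.7 CPM in dKO with MI-503, 53.2 and 55.6 CPM in dKO with DMSO, 268 and 258 CPM in WT with MI-503, and 137 and 132 CPM in WT with DMSO. Each group was clear of the others, and both WT groups lay above both dKO groups. Bcl2l1 was lower in dKO by a log2 fold change of -1.60 in MI-503 (SE 0.0548, adjusted p = 2.08e-11) and -1.31 in DMSO (SE 0.0554, adjusted p = 1.34e-10). MI-503 raised it in both genotypes, by 0.68 in dKO (SE 0.0553, adjusted p = 1.97e-07) and 0.97 in WT (SE 0.0537, adjusted p = 1.36e-09).

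Mcl1 (ENSMUSG00000038612, chromosome 3, 95656944 to 95663179), whose short-lived protein binds BIM, NOXA and BAK, had 215 and 229.8 CPM in dKO with MI-503, 264 and 249.5 CPM in dKO with DMSO, 208 and 218 CPM in WT with MI-503, and 242 and 252 CPM in WT with DMSO. The genotypes overlapped within each treatment, and the MI-503 libraries lay below the DMSO libraries of their genotype. With MI-503 it fell by 0.21 on the log2 scale in dKO (SE 0.0508, adjusted p = 0.00343) and fell by 0.21 in WT (SE 0.0509, adjusted p = 0.00196). The log2 difference between dKO and WT did not pass in DMSO (0.06, SE 0.0508, adjusted p = 0.347) or in MI-503 (0.06, SE 0.0509, adjusted p = 0.312). These Mcl1 calls moved with the scaling. With library size alone the difference between genotypes in DMSO was 0.29 (adjusted p = 0.000185), and the fall with MI-503 in WT was -0.04 (adjusted p = 0.501).

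Ratios of counts between 2 genes in the same library do not depend on the scaling, and gene length cancels when a ratio is compared across groups. For each count of Bcl2l1 there were 2.36 and 2.78 of Mcl1 in dKO with MI-503, 4.96 and 4.49 in dKO with DMSO, 0.775 and 0.845 in WT with MI-503, and 1.76 and 1.91 in WT with DMSO. The ratio of Bcl2 to Bcl2l1 was 0.33 and 0.358 in dKO with MI-503, 0.717 and 0.662 in dKO with DMSO, 0.098 and 0.0957 in WT with MI-503, and 0.143 and 0.141 in WT with DMSO. Measured against Bcl2l1, the other pro-survival transcripts therefore stood higher in dKO than in WT libraries under either treatment, and lower with MI-503 than with DMSO in either genotype. The ratio of Bcl2l11 to Mcl1, a BH3-only gene over a guard that its product binds, was 0.137 and 0.134 in dKO with MI-503, 0.0660 and 0.0646 in dKO with DMSO, 0.149 and 0.141 in WT with MI-503, and 0.109 and 0.105 in WT with DMSO. It was lowest in dKO with DMSO, and the groups did not overlap.

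The effector members Bak1 and Bok changed in the same direction wherever both passed. Bak1 (ENSMUSG00000057789, chromosome 17, 27019812 to 27028627), which encodes the pore-forming protein BAK, measured 105 and 101.5 CPM in dKO with MI-503, 90.2 and 92.8 CPM in dKO with DMSO, 111 and 107 CPM in WT with MI-503, and 55.9 and 51.6 CPM in WT with DMSO. The WT DMSO libraries were far below the other 6. Bak1 was higher in dKO than in WT under DMSO by a log2 fold change of 0.77 (SE 0.0537, adjusted p = 2.19e-08), and the difference under MI-503 was -0.08 (SE 0.0525, adjusted p = 0.23). MI-503 raised it by 0.18 in dKO (SE 0.0526, adjusted p = 0.0109) and by 1.02 in WT (SE 0.0538, adjusted p = 7.67e-10). The rise in dKO was 0.15 and no longer passed without dKO DMSO replicate 1 (adjusted p = 0.0681) or without dKO MI-503 replicate 1 (adjusted p = 0.0932). Ggnbp1 overlaps Bak1 over 8816 bases, the whole span of Bak1, and its own counts were low, at 0.739 to 1.66 CPM as group means. Since strand handling is unknown, these low counts do not tell how reads of the shared bases were assigned.

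Bok (ENSMUSG00000026278, chromosome 1, 93685575 to 93695770) encodes an effector-like protein that is known to be kept low by degradation at the ER. It had 18.0 and 15.1 CPM in dKO with MI-503, 9.04 and 10.98 CPM in dKO with DMSO, 15.4 and 14.6 CPM in WT with MI-503, and 6.45 and 4.65 CPM in WT with DMSO. The MI-503 groups overlapped, and WT with DMSO was again lowest. The log2 fold change of dKO against WT was 0.14 in MI-503 (SE 0.129, adjusted p = 0.392) and 0.85 in DMSO (SE 0.144, adjusted p = 0.000139). With MI-503 it rose by 0.72 in dKO (SE 0.132, adjusted p = 0.000343) and 1.44 in WT (SE 0.142, adjusted p = 5.74e-07). Bax, the remaining effector of the family, was looked up after its values were seen. It rose with MI-503 in both genotypes, by 0.51 in dKO (SE 0.0684, adjusted p = 2.45e-05) and 0.35 in WT (SE 0.0687, adjusted p = 0.000403), and the log2 difference of dKO against WT was -0.03 in DMSO (adjusted p = 0.702).

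Promoter windows from RefSeq (GRCm38.p6), the 250 bases before each gene's start, are shown for the effectors Bak1 and Bok and for Bcl2, which MI-503 moved in opposite directions in the 2 genotypes. Capitals mark GC boxes, the letters GGGCGG or their reverse complement CCGCCC, to which SP-family factors bind.
Bak1: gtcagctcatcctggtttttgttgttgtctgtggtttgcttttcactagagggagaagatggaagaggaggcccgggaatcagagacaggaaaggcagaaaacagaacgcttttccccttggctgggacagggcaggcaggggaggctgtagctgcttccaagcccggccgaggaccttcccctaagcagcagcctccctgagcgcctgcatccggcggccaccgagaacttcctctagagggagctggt
Bok: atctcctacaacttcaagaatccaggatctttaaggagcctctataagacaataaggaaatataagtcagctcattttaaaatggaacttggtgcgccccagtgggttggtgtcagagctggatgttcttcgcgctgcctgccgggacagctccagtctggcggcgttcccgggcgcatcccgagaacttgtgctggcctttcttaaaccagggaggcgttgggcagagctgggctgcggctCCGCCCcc
Bcl2: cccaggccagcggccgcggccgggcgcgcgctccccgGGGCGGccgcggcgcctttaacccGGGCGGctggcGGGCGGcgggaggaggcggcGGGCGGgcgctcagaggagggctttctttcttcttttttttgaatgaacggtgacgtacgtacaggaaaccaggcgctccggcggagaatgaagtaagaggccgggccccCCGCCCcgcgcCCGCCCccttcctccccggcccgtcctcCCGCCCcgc
They lie at chr17:27028628-27028877 on the minus strand (Bak1), chr1:93685325-93685574 on the plus strand (Bok) and chr1:106714291-106714540 on the minus strand (Bcl2). Bases G and C made up 58.4% of the Bak1 window, 55.2% of Bok and 74.8% of Bcl2, against a median of 52.4% over all 32851 promoters in the table. The Bcl2 window held 7 GC boxes and the Bok window 1, and 32.7% of all promoters held at least 1. None of the 9 motifs searched on both strands was found in the Bak1 window. They were the GC box, TATAAA (in 12.4% of all promoters), CCAAT (33.8%), the E-box CACGTG (6.02%), the cAMP element TGACGTCA (1.55%), the AP-1 site TGANTCA (6.75%), the FOXO site TGTTTAC (3.17%), the C/EBP-ATF element TGATGNAA (3.45%) and the ETS core CCGGAAGT (2.88%). A match describes letters only, and a missing match says nothing of a factor outside this window. Of the 10 genes, 9 had a promoter in the table, and Bik was not matched.

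The BH3-only genes did not move as a block. Bcl2l11 (ENSMUSG00000027381, chromosome 2, 128126038 to 128162547) encodes BIM, which binds all pro-survival members and can activate effectors. It measured 29.6 and 30.7 CPM in dKO with MI-503, 17.4 and 16.1 CPM in dKO with DMSO, 31.0 and 30.7 CPM in WT with MI-503, and 26.4 and 26.4 CPM in WT with DMSO. Only dKO with DMSO stood well below the rest. Its log2 fold change in dKO against WT was -0.03 in MI-503 (SE 0.063, adjusted p = 0.675) and -0.66 in DMSO (SE 0.0653, adjusted p = 8.17e-07). MI-503 raised it by 0.85 in dKO (SE 0.0649, adjusted p = 1.03e-07) and 0.23 in WT (SE 0.0635, adjusted p = 0.00617). FOXO factors are known activators of Bcl2l11. With MI-503, the log2 change of Foxo1 was -0.40 in dKO and -0.64 in WT, and that of Foxo3 was 0.12 and -0.96. In dKO against WT, Foxo1 differed by -0.37 in MI-503 and -0.60 in DMSO, and Foxo3 by 0.17 and -0.90. The part of these factors in the Bcl2l11 values was not tested. The table has 2 promoter windows for Bcl2l11. The window before the outermost start held 1 FOXO motif, on the minus strand, shown in capitals with its surroundings, and the other window, at a start inside the gene, held 0.
Bcl2l11: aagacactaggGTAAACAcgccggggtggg
The 30 bases are chr2:128125800-128125829 on the plus strand, and the motif begins 227 bases before the start of the gene.

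Bid (ENSMUSG00000004446, chromosome 6, 120893119 to 120917062), whose protein is cut by caspase-8 and so links death receptors to mitochondria, had 31.6 and 31.0 CPM in dKO with MI-503, 27.5 and 29.0 CPM in dKO with DMSO, 38.8 and 38.2 CPM in WT with MI-503, and 54.2 and 53.0 CPM in WT with DMSO. WT with DMSO was highest and dKO with DMSO lowest, with no overlap between groups. Bid was lower in dKO than in WT by a log2 fold change of -0.30 in MI-503 (SE 0.0573, adjusted p = 0.00053) and -0.92 in DMSO (SE 0.0571, adjusted p = 6.31e-09). In WT it fell by 0.48 with MI-503 (SE 0.0564, adjusted p = 3.7e-06). In dKO the log2 change with MI-503 was 0.14 (SE 0.0578), just past the threshold at an adjusted p of 0.0473. That call did not hold with DESeq2 (0.14, adjusted p = 0.0909), with RLE scaling (0.14, adjusted p = 0.0543), without dKO MI-503 replicate 1 (0.13, adjusted p = 0.208) or 2 (0.16, adjusted p = 0.109), or without dKO DMSO replicate 1 (0.10, adjusted p = 0.247).

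Bad (ENSMUSG00000024959, chromosome 19, 6941861 to 6951905), a BH3-only gene whose protein is held inactive by growth factor signalling, had 20.5 and 17.3 CPM in dKO with MI-503, 19.3 and 23.9 CPM in dKO with DMSO, 15.8 and 12.2 CPM in WT with MI-503, and 15.5 and 12.3 CPM in WT with DMSO. Treatments overlapped within each genotype, and the dKO libraries lay above the WT libraries of the same treatment. The log2 fold change of dKO against WT was 0.43 in MI-503 (SE 0.14, adjusted p = 0.0184) and 0.64 in DMSO (SE 0.14, adjusted p = 0.00115). This MI-503 difference was 0.30 without dKO MI-503 replicate 1 (adjusted p = 0.125) and 0.27 without WT MI-503 replicate 2 (adjusted p = 0.173). MI-503 effects did not pass, at -0.19 in dKO (SE 0.136, adjusted p = 0.263) and 0.02 in WT (SE 0.143, adjusted p = 0.929). Gpr137 overlaps Bad over 590 bases and averaged 18.8 ± 2.04 CPM in dKO with MI-503, 12.5 ± 1.90 in dKO with DMSO, 15.3 ± 0.159 in WT with MI-503 and 7.59 ± 0.45 in WT with DMSO (SD, n = 2 each). Whether the counting used strand is unknown from the sources at hand, and reads of the shared bases may belong to either gene.

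Bik (ENSMUSG00000016758, chromosome 15, 83526790 to 83544635) encodes a BH3-only protein of the ER membrane and was near the limit of detection in dKO. It had 14 and 14 counts (0.208 and 0.227 CPM) in dKO with MI-503, 6 and 4 counts (0.0910 and 0.0561 CPM) in dKO with DMSO, 219 and 150 counts (3.20 and 2.51 CPM) in WT with MI-503, and 39 and 19 counts (0.635 and 0.314 CPM) in WT with DMSO. Both WT groups lay above both dKO groups. The log2 fold change of dKO against WT was -3.71 in MI-503 (SE 0.316, adjusted p = 2.69e-07) and -2.67 in DMSO (SE 0.5, adjusted p = 0.000321). With MI-503 it rose by 1.55 in dKO (SE 0.581, adjusted p = 0.0362) and 2.59 in WT (SE 0.279, adjusted p = 1.45e-06). The rise in dKO rests on 28 counts against 10, a ratio of scaled counts of 2.98 with a 95% counting interval of 1.40 to 6.87, and it no longer passed when any 1 dKO library was left out, at 1.24 to 1.91. With 1 library left out, the DMSO difference between genotypes ran from -3.09 to -2.08 and the rise with MI-503 in WT from 2.16 to 3.18, and these calls held. The value nearest to 0 for the genotypes and the highest in WT came without WT DMSO replicate 1.

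Bmf (ENSMUSG00000040093, chromosome 2, 118528757 to 118549686) encodes a BH3-only protein that is tied to the cytoskeleton until cells lose attachment. Its counts were 5 and 3 (0.0742 and 0.0486 CPM) in dKO with MI-503, 15 and 14 (0.227 and 0.196 CPM) in dKO with DMSO, 47 and 50 (0.687 and 0.836 CPM) in WT with MI-503, and 24 and 11 (0.391 and 0.182 CPM) in WT with DMSO. WT with MI-503 was highest and dKO with MI-503 lowest, while the DMSO groups overlapped. In MI-503 it was lower in dKO by a log2 fold change of -3.58 (SE 0.494, adjusted p = 3.23e-05), 8 counts against 97, a ratio of 0.0819 with a 95% counting interval of 0.0344 to 0.168. In DMSO the log2 difference was -0.44 (SE 0.449, adjusted p = 0.413), and without WT DMSO replicate 1 it was 0.22. MI-503 lowered Bmf in dKO (-1.74, SE 0.595, adjusted p = 0.0234) and raised it in WT (1.40, SE 0.38, adjusted p = 0.00483). The fall in dKO was -2.08 without dKO MI-503 replicate 1 (adjusted p = 0.0547), -1.49 without replicate 2 of that group (adjusted p = 0.115) and -1.64 without dKO DMSO replicate 1 (adjusted p = 0.0848), and the rise in WT was 0.95 (adjusted p = 0.0601) without WT DMSO replicate 2 and 2.05 without WT DMSO replicate 1. Intervals of counts cover counting error only.

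**Figure D2:**
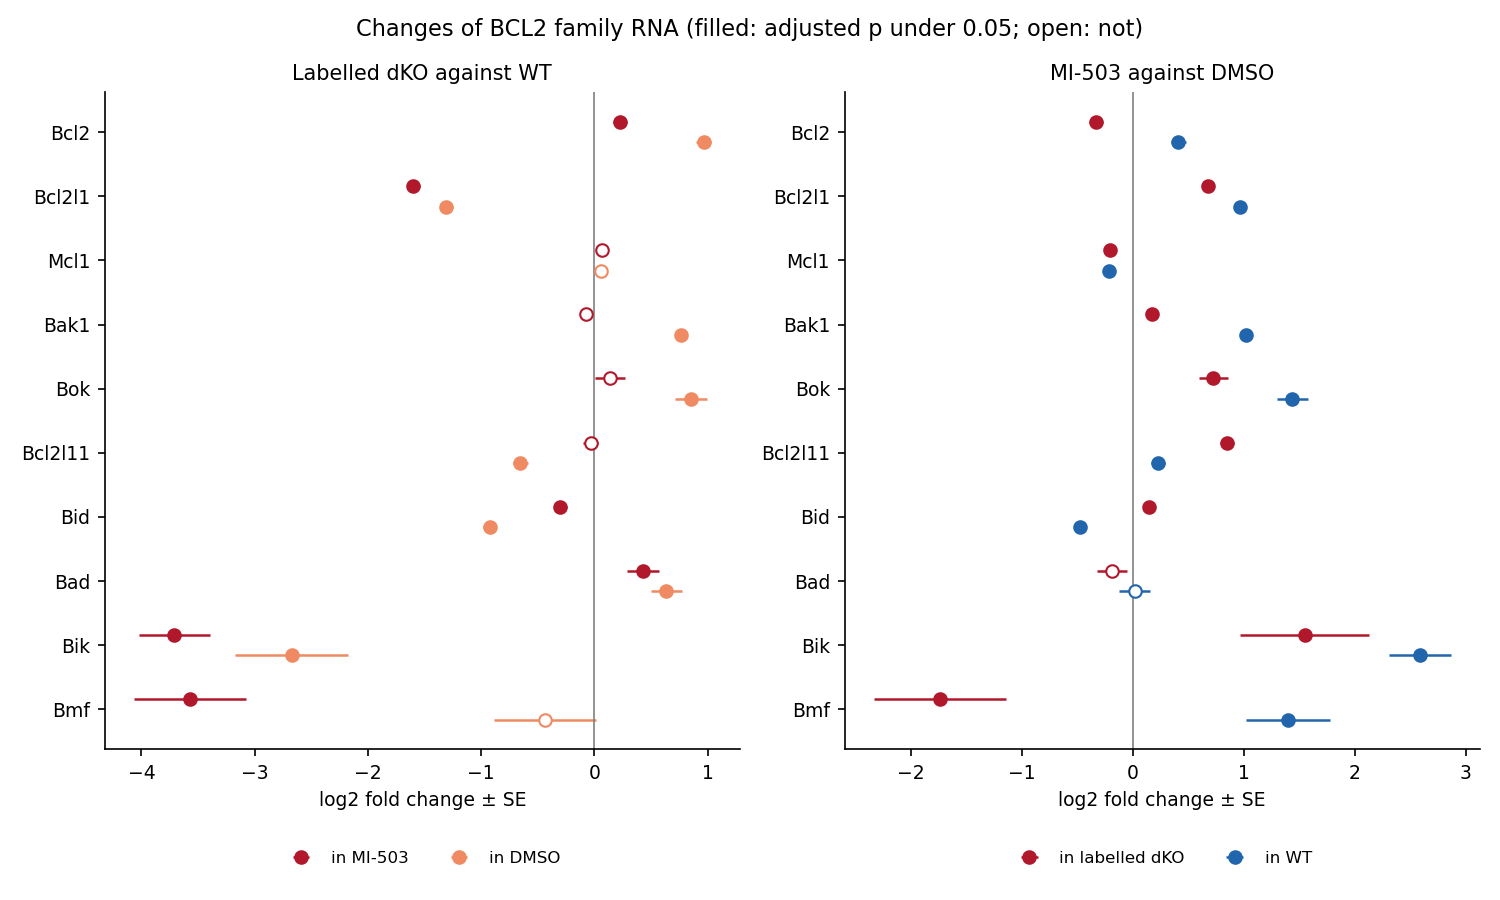
Log2 fold changes of the 10 genes (edgeR, with SE bars) in the genotype and MI-503 comparisons. Filled points passed an adjusted p of 0.05 and open points did not. Bmf and Bik reach -3.58 and -3.71 for dKO against WT in MI-503, and Mcl1 stays within 0.21 of 0 throughout.

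Between genotypes under DMSO, the dKO libraries held more Bcl2, Bak1, Bok and Bad and less Bcl2l1, Bcl2l11, Bid and Bik than the WT libraries. So 4 members rose, 4 fell, and Mcl1 and Bmf did not pass. Each direction took in a pro-survival gene and at least 1 gene that promotes death. Of all genes tested, 65.4% passed in this comparison (29.6% higher, 35.8% lower), so a count of 8 of 10 is not far from the background. The libraries of the 2 genotypes did not overlap for 8 of the 10, against 81.1% of all genes. Bcl2l1 and Bik passed with a change of at least 2-fold, 2 of 10, against 22.6% of all genes. The median log2 change was -0.19 over the members and -0.05 over all genes.

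Under MI-503 the dKO libraries held more Bcl2 and Bad and less Bcl2l1, Bid, Bmf and Bik. The other 4 members, Mcl1, Bcl2l11, Bak1 and Bok, did not pass. Both calls of a higher level depended on single libraries. Without WT MI-503 replicate 2 the log2 difference was 0.19 for Bcl2 and 0.27 for Bad. The genes that passed were 55.1% of all tested (26.6% higher, 28.5% lower), and the groups did not overlap for 8 members, against 77.1% of all genes. The median log2 change was -0.06 over the members and 0.01 over all genes. The differences seen in DMSO for Bcl2l11, Bak1 and Bok had log2 values of -0.03, -0.08 and 0.14 here. At least 2-fold differences that passed numbered 3 of 10 (Bcl2l1, Bmf and Bik), against 17.2% of all genes.

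MI-503 against DMSO in dKO raised Bcl2l1, Bcl2l11, Bak1, Bok, Bid and Bik and lowered Bcl2, Mcl1 and Bmf, and only Bad did not pass. Of all genes tested, 55.6% passed (29.1% higher, 26.5% lower). The count of 9 depended on single libraries, since 5 members passed without dKO DMSO replicate 1 and 5 without dKO MI-503 replicate 1. The libraries of the 2 treatments did not overlap for 9 members, against 75.1% of all genes. Of the members that passed, 2 changed at least 2-fold (Bik and Bmf, both at under 20 counts per library in dKO), against 14.1% of all genes. The median log2 change was 0.16 over the members and 0.03 over all genes.

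In WT, MI-503 raised Bcl2, Bcl2l1, Bcl2l11, Bak1, Bok, Bmf and Bik and lowered Mcl1 and Bid, and Bad again did not pass. The background was 69.0% of all genes (35.2% higher, 33.7% lower), and the libraries of the 2 treatments did not overlap for 9 members, against 83.4% of all genes. Changes of at least 2-fold that passed were seen for Bak1, Bok, Bmf and Bik, 4 of 10, against 28.4% of all genes. The median log2 change was 0.69 over the members and 0.03 over all genes. This comparison and that of the genotypes in DMSO share the WT DMSO libraries. Side by side, the log2 changes in these 2 comparisons were 1.02 with MI-503 and 0.77 with genotype for Bak1, 1.44 and 0.85 for Bok, 0.41 and 0.97 for Bcl2, and -0.48 and -0.92 for Bid.

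The interaction term asked whether MI-503 acted differently in dKO than in WT, as the log2 effect in dKO minus that in WT. It passed for 7 of 10 members, against 46.8% of all genes (24.8% higher, 22.0% lower), with a median of -0.50 over the members and 0.02 over all genes. Bcl2 (-0.74, SE 0.0903, adjusted p = 1.56e-05) and Bmf (-3.14, SE 0.703, adjusted p = 0.00224) fell in dKO and rose in WT. The Bmf difference was -3.79 without WT DMSO replicate 1 and -2.69 without WT DMSO replicate 2. Bak1 (-0.85, SE 0.0751, adjusted p = 8.89e-07), Bok (-0.71, SE 0.194, adjusted p = 0.008) and Bcl2l1 (-0.29, SE 0.0767, adjusted p = 0.00666) rose less in dKO than in WT. Bcl2l11 rose more in dKO (0.62, SE 0.0907, adjusted p = 7.51e-05). Bid fell in WT, while its small rise in dKO depended on the method, and the difference was 0.62 (SE 0.0807, adjusted p = 2.65e-05). For Mcl1 the difference was 0.01 (SE 0.0719, adjusted p = 0.95), for Bad -0.21 (SE 0.198, adjusted p = 0.434) and for Bik -1.04 (SE 0.729, adjusted p = 0.274), and these did not pass.

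**Figure D3:**
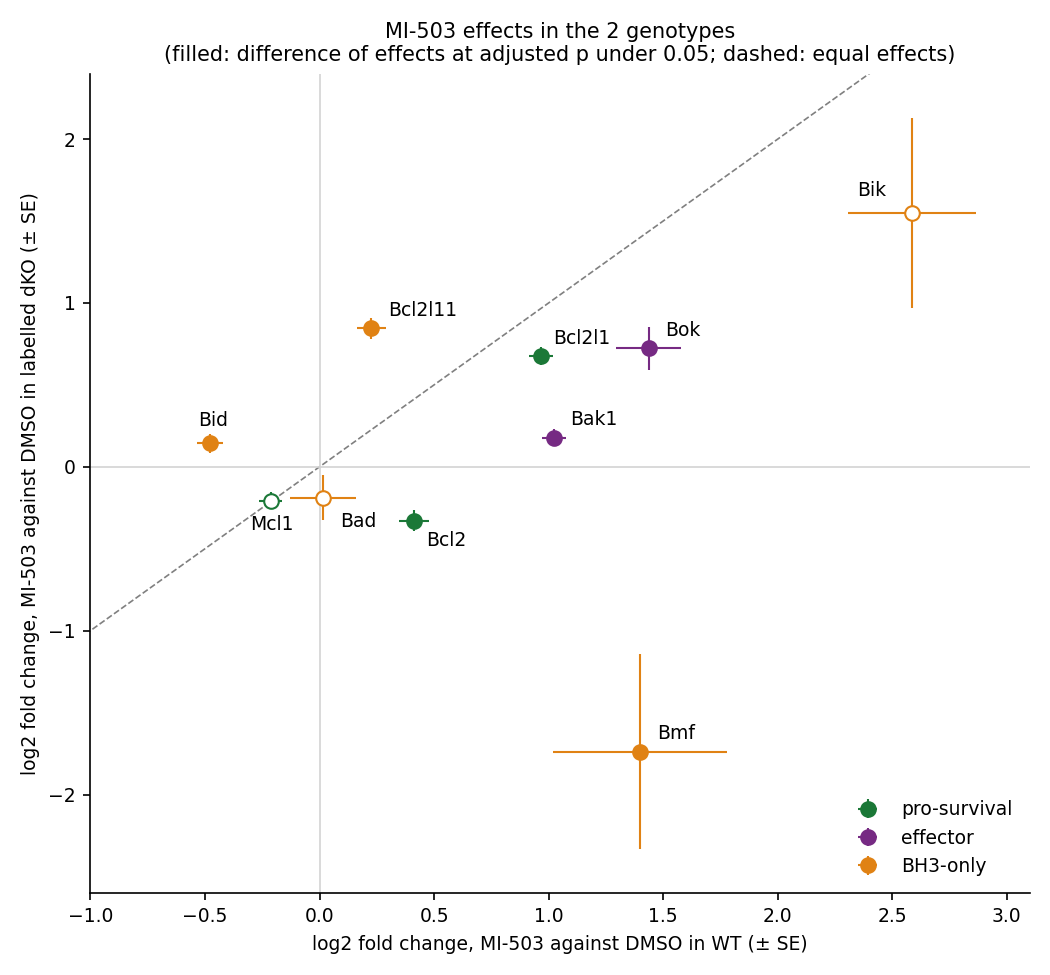
Log2 effect of MI-503 against DMSO in dKO and in WT for each gene, with SE bars (edgeR). Bcl2 and Bmf lie on opposite sides of 0 in the 2 genotypes, and Bak1 stands at 0.18 in dKO and 1.02 in WT.

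The genes most like Bik, Bcl2l1 and Bok, the members of widest spread on the scale with the offset, were sought. Likeness was the root mean square distance between profiles over the 8 libraries. Profiles were log2 CPM with an offset of 0.5 CPM, each centred on its mean, and candidates averaged at least 5 CPM. Nearest to Bik among 9696 candidates were Gpa33 (distance 0.132), Rap1gap (0.156) and Bspry (0.175). Gpa33 averaged 13.0 CPM in dKO with MI-503, 9.70 in dKO with DMSO, 60.1 in WT with MI-503 and 16.3 in WT with DMSO. The offset shrinks the log2 changes of Bik, which lay as low as 0.0561 CPM, more than those of these candidates. By edgeR, Bik was 6.38-fold lower in dKO than in WT under DMSO, so its fold changes are not those of Gpa33. For Bcl2l1 the nearest included Kif21b (0.101) and Pacs1 (0.135), of 9695. Pacs1 averaged 25.4 CPM in dKO with MI-503, 16.7 in dKO with DMSO, 69.8 in WT with MI-503 and 45.1 in WT with DMSO. Bok was nearest to Shkbp1 (0.0722), Fam173a (0.0731) and Lrwd1 (0.082), and Shkbp1 averaged 24.9 CPM in dKO with MI-503, 15.1 in dKO with DMSO, 24.6 in WT with MI-503 and 8.55 in WT with DMSO. Likeness of a profile over 4 groups says nothing of shared function.

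Other BCL2 relatives, 10 of 15 listed genes having enough counts, moved in both directions. In dKO against WT, 2 rose and 4 fell under MI-503, and 3 rose and 5 fell under DMSO. With MI-503, 3 rose and 4 fell in dKO, and 5 rose and 4 fell in WT. Their median log2 changes were -0.17 under MI-503 and -0.38 under DMSO for dKO against WT. With MI-503 they were -0.36 in dKO and 0.17 in WT. Over all genes tested, 26.6% rose and 28.5% fell in dKO against WT under MI-503, and 29.6% and 35.8% under DMSO. The shares with MI-503 were 29.1% and 26.5% in dKO, and 35.2% and 33.7% in WT. Pmaip1, which encodes NOXA, a BH3-only protein that targets MCL-1, averaged 75.4 ± 3.16 CPM in dKO with MI-503, 118 ± 3.19 in dKO with DMSO, 62.1 ± 0.735 in WT with MI-503 and 256.6 ± 18.9 in WT with DMSO (SD, n = 2 each). It fell with MI-503 by 0.65 in dKO (adjusted p = 3.63e-07) and fell by 2.05 in WT (adjusted p = 2.33e-12). Bbc3, which encodes the p53 target PUMA, averaged 2.62 ± 0.319 CPM in dKO with MI-503, 8.03 ± 1.97 in dKO with DMSO, 3.05 ± 0.0991 in WT with MI-503 and 8.53 ± 0.95 in WT with DMSO. It fell by 1.61 in dKO and fell by 1.48 in WT with MI-503 (adjusted p = 1.67e-06 in each). So these BH3-only genes fell with MI-503 in both genotypes, while Bcl2l11 and Bik rose, the rise of Bik in dKO depending on single libraries. The other BH3-only members followed neither course. Bid fell in WT, Bmf moved in opposite directions in the genotypes, and Bad did not pass. Bcl2l14 rose with MI-503 in WT by 1.69 (adjusted p = 1.72e-06), with -0.81 in dKO (adjusted p = 0.0584). Its group means were 0.186 CPM in dKO with MI-503, 0.326 in dKO with DMSO, 3.13 in WT with MI-503 and 0.967 in WT with DMSO. Bcl2l15 was 17.0-fold lower in dKO than in WT under DMSO (log2 -4.09, adjusted p = 1.12e-10). Bcl2l12 was higher in dKO than in WT in both treatments, by 0.66 in MI-503 (adjusted p = 0.00193) and 1.41 in DMSO (adjusted p = 6.39e-06).

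Downstream of the mitochondria, 14 genes of the apoptosome and the caspases were tested. In dKO against WT, 3 rose and 7 fell under MI-503, and 6 rose and 8 fell under DMSO. With MI-503, 9 rose and 2 fell in dKO, and 5 rose and 5 fell in WT. The medians were -0.12 under MI-503 and -0.27 under DMSO for dKO against WT, and 0.42 in dKO and 0.03 in WT with MI-503. Between genotypes, the shares of all genes that rose and fell were 26.6% and 28.5% under MI-503, and 29.6% and 35.8% under DMSO. They were 29.1% and 26.5% with MI-503 in dKO, and 35.2% and 33.7% in WT. Apaf1, the scaffold on which cytochrome c acts, averaged 67.9 ± 1.69 CPM in dKO with MI-503, 45.8 ± 0.76 in dKO with DMSO, 76.9 ± 2.17 in WT with MI-503 and 128 ± 10.8 in WT with DMSO. With MI-503 Apaf1 rose by 0.57 in dKO (adjusted p = 2.63e-06) and fell by 0.74 in WT (adjusted p = 6.82e-08). Cycs, which encodes cytochrome c, fell by 1.00 with MI-503 in WT (adjusted p = 1.78e-10) and changed by 0.02 in dKO (adjusted p = 0.73).

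Inhibitors of apoptosis, which block caspases or death receptor signals, numbered 6. With MI-503, 2 rose and 3 fell in dKO, and 0 rose and 4 fell in WT. In dKO against WT, 4 rose and 2 fell under MI-503, and 1 rose and 4 fell under DMSO. Median log2 changes were 0.02 in dKO and -0.24 in WT with MI-503, and 0.24 under MI-503 and -0.20 under DMSO for dKO against WT. The background with MI-503 was 29.1% of all genes higher and 26.5% lower in dKO, and 35.2% and 33.7% in WT. For dKO against WT it was 26.6% and 28.5% under MI-503, and 29.6% and 35.8% under DMSO. Birc5, the survivin gene, which also serves cell division, rose with MI-503 in dKO by 0.63 (adjusted p = 1.74e-07), and its log2 change in WT was 0.09 (adjusted p = 0.152). Cflar, a decoy of caspase-8, averaged 258.5 ± 11.5 CPM in dKO with MI-503, 187.2 ± 7.49 in dKO with DMSO, 181.1 ± 2.72 in WT with MI-503 and 251 ± 10.2 in WT with DMSO, log2 changes with MI-503 of 0.47 in dKO (adjusted p = 3.13e-06) and -0.47 in WT (adjusted p = 1.45e-06).

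Death receptors and their adaptors, 8 of 9 listed genes, feed into the family through Bid. In dKO against WT, 1 rose and 4 fell under MI-503, and 2 rose and 6 fell under DMSO. With MI-503, 5 rose and 1 fell in dKO, and 3 rose and 5 fell in WT. Medians stood at -0.16 under MI-503 and -0.66 under DMSO for dKO against WT. With MI-503 they stood at 0.20 in dKO and -0.44 in WT. Among all genes, 26.6% rose and 28.5% fell in dKO against WT under MI-503, and 29.6% and 35.8% under DMSO. With MI-503, 29.1% and 26.5% of all genes rose and fell in dKO, and 35.2% and 33.7% in WT. Fas averaged 6.20 ± 0.441 CPM in dKO with MI-503, 1.72 ± 0.0696 in dKO with DMSO, 9.40 ± 0.383 in WT with MI-503 and 22.0 ± 2.98 in WT with DMSO. It was lower in dKO than in WT by a log2 fold change of -0.60 in MI-503 (adjusted p = 0.000342) and -3.68 in DMSO (adjusted p = 1.24e-11). With MI-503 it rose by 1.85 in dKO (adjusted p = 4.98e-08) and fell by 1.23 in WT (adjusted p = 8.46e-08). The receptor gene Tnfrsf10b, whose product binds the ligand TRAIL, averaged 69.1 ± 0.231 CPM in dKO with MI-503, 55.0 ± 0.762 in dKO with DMSO, 56.6 ± 2.33 in WT with MI-503 and 119.6 ± 9.15 in WT with DMSO. It had log2 changes with MI-503 of 0.33 in dKO (adjusted p = 0.000286) and -1.08 in WT (adjusted p = 1.08e-09).

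Of 14 transcription factors known to act on the members, 3 rose and 10 fell with MI-503 in dKO, and 2 rose and 10 fell in WT. Of all genes, 29.1% rose and 26.5% fell in dKO, and 35.2% rose and 33.7% fell in WT. In dKO against WT, 6 factors rose and 6 fell under MI-503, and 4 rose and 9 fell under DMSO. The shares of all genes in these 2 comparisons were 26.6% and 28.5%, and 29.6% and 35.8%. The list's median was -0.33 in dKO and -0.56 in WT with MI-503, and -0.02 under MI-503 and -0.40 under DMSO for dKO against WT. Ddit3, which encodes CHOP, an ER stress factor known to raise Bcl2l11 and to lower Bcl2, averaged 22.9 ± 1.79 CPM in dKO with MI-503, 145.7 ± 7.45 in dKO with DMSO, 24.0 ± 2.23 in WT with MI-503 and 621.9 ± 21.8 in WT with DMSO. It fell by 2.67 in dKO (adjusted p = 6.49e-12) and fell by 4.70 in WT (adjusted p = 1.73e-14) with MI-503. Trp63, the p63 gene of basal cells, was higher in dKO than in WT, by 1.27 in MI-503 (adjusted p = 2.18e-11) and 1.14 in DMSO (adjusted p = 4.34e-11). The wider ER stress list, 12 genes, had 1 rise and 10 falls with MI-503 in dKO and 12 falls in WT, with medians of -1.11 and -3.88. Hspa5, the ER chaperone BiP, fell to 342 ± 0.291 CPM in WT with MI-503, against 14670 ± 801 CPM in WT with DMSO.

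**Figure D4:**
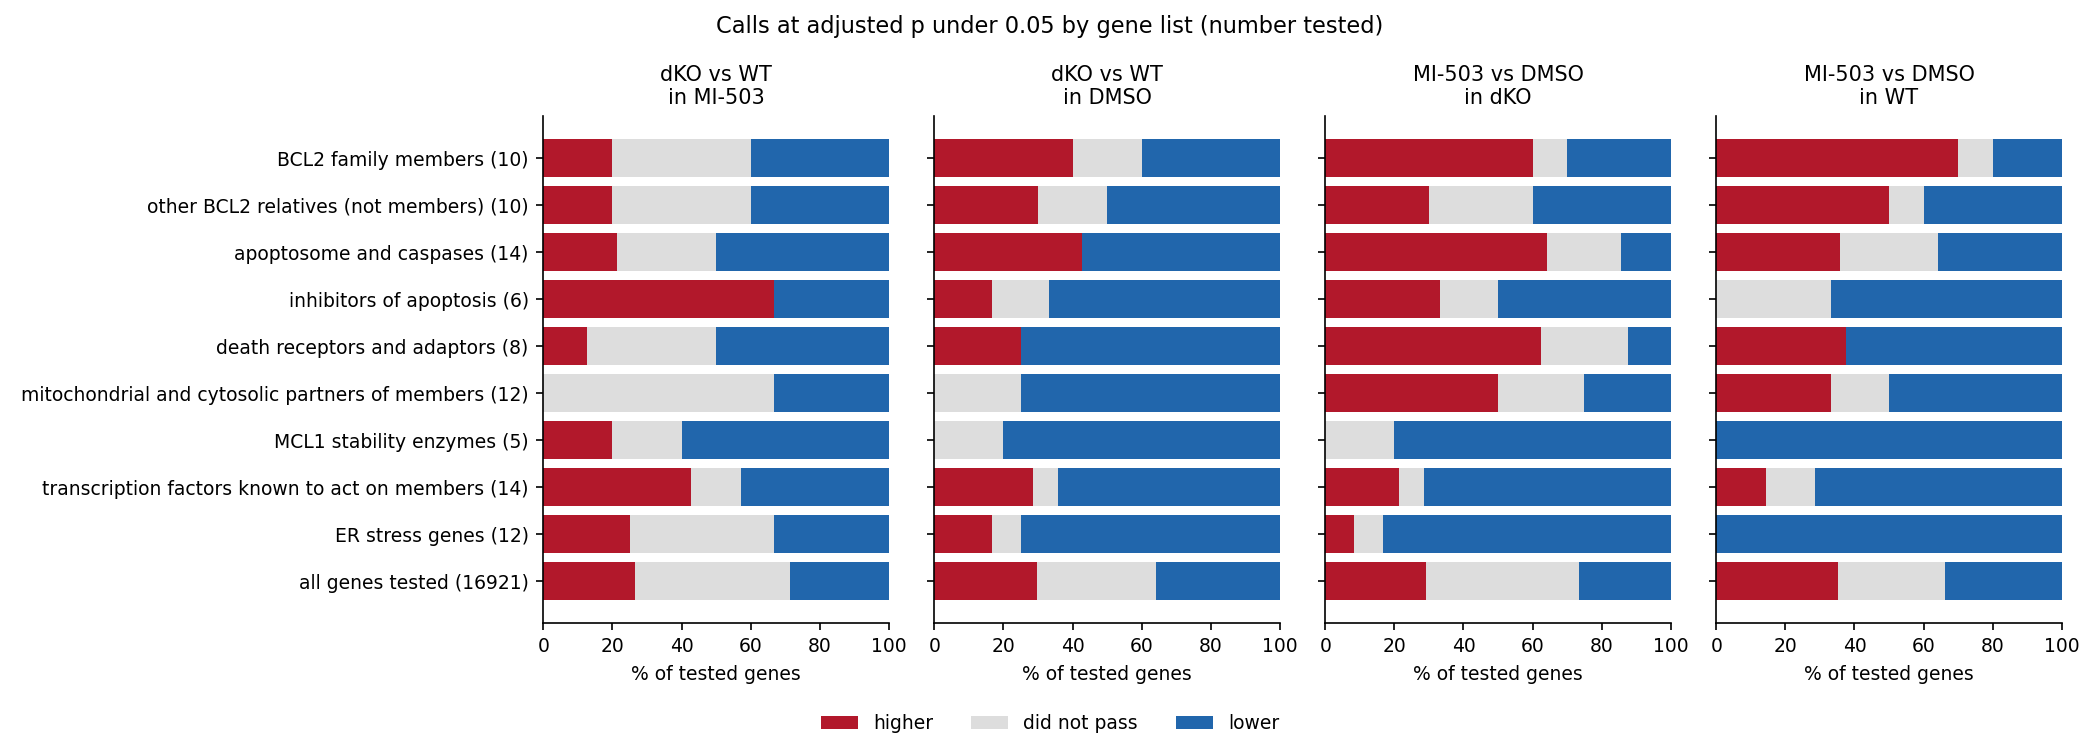
Share of the tested genes of each list, in percent, that rose, fell or did not pass in each comparison (edgeR, adjusted p under 0.05), with the number tested in parentheses and the family genes in the top bar. All 12 ER stress genes fell with MI-503 in WT, against 33.7% of all genes, and 7 of the 10 family genes rose, against 35.2%.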

How the data were processed

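Of 40 samples in the series, the 8 polyA RNA libraries were used and 32 from other assays were not analysed here. The authors deposited their values as whole counts of reads for each gene, without scaling. Per the submitters' processing notes, the series as a whole used STAR, Bowtie2, MACS3, deepTools and SICER, with GRCm38 and mm10 as builds. The sources used here do not give tool versions, the way reads were assigned to genes, strand handling or the annotation release. Symbols were found for 53274 of 53465 identifiers, and 1 row lacking an identifier was left out.

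All 8 libraries entered a single quasi-likelihood model (edgeR 4.0.16 under R 4.3.3) with a mean for each group and 4 residual degrees of freedom. The filterByExpr settings were a minimum count of 10 and a minimum total of 15, TMM factors ran from 0.892 to 1.06, and fold changes used a prior count of 0.125. Tests were two-sided, with Benjamini-Hochberg adjustment over 16921 genes. The SE was taken as the size of the log2 fold change divided by the root of its F value. With 2 libraries against 2, exact permutation can reach no p below 0.33. A count of 0 allows up to 3 counts, 0.0421 to 0.0501 scaled CPM, counting error only. The fit was tested on simulated data in which few genes changed. That simulation cannot test the scaling here, since 65.4% of genes passed in dKO against WT under DMSO. No 2 libraries were duplicates: chi-square per gene was 5.48 to 14.3 within groups. DESeq2 1.42.0, other scalings and filters, a replicate block and leaving out each library were tried as alternatives.

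The members and lists were chosen with earlier results of these data known. The genes named from a list are, per comparison, those that rose most and fell most among its genes past the threshold, at a mean of at least 1 CPM. Bax, Foxo1 and Foxo3 are exceptions, named outside this rule beside the effectors and Bcl2l11. Some genes that the rules chose are not reported here. Positions and promoters came from RefSeq tables of GRCm38.p6.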

Additional observations from a re-analysis of the deposited data

Results flagged for a closer look

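The values here are differences between the MI-503 effects of the 2 genotypes (log2 effect in dKO minus that in WT), each past an adjusted p of 0.05 by edgeR's interaction test. Among the BCL2 family genes, the differences were -0.74 for Bcl2 and -3.14 for Bmf, which fell in dKO and rose in WT. Bmf had only 3 to 50 counts per library. With 1 library left out, its log2 change with MI-503 ran from -2.08 to -1.49 in dKO and from 0.95 to 2.05 in WT. The fall of Bmf in dKO rested on 8 counts against 29, and its calls in both genotypes depended on single libraries. The differences were -0.29 for Bcl2l1, -0.85 for Bak1 and -0.71 for Bok, which rose in both genotypes and less so in dKO. Bcl2l11 differed by 0.62, with the larger rise in dKO. Bid also differed by 0.62, with a fall in WT.

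Among the other genes of the pathway, Fas differed by 3.08, Apaf1 by 1.30 and Cflar by 0.94, each with a rise in dKO and a fall in WT. Pmaip1 (1.40), Ddit3 (2.02), Huwe1 (0.63) and Creld2 (4.46) fell in both genotypes and less so in dKO, while Trib3 (-1.81) fell further in dKO. Tradd (-0.57) and Vdac1 (-0.28) rose in both genotypes and less so in dKO. Bcl2l14 differed by -2.50 and rose in WT, while its change in dKO did not pass. Its counts in dKO were low, at 12 and 12 with MI-503 and 19 and 26 with DMSO. Bag3 differed by 1.29 and fell in WT, with a log2 change of 0.08 in dKO. Rela differed by -0.30 and fell in dKO, with a log2 change of -0.09 in WT. Every one of these differences includes the WT DMSO libraries, in which the ER stress list took 2.92 and 3.14% of scaled counts, against at most 0.373% in the other 6. The part of that share in these differences was not tested.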

How the results depend on the processing

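The number of family genes past the threshold stayed within 1.5 times its value under each alternative, with 1 exception. For MI-503 against DMSO in dKO it was 5 to 8 when 1 library was left out, and 5 without dKO DMSO replicate 1 or without dKO MI-503 replicate 1, against 9 with all libraries. Of 575 values of single members under alternatives, 534 kept their direction and their side of the threshold. Those that changed sign were differences that did not pass with all libraries. The Mcl1 interaction became -0.02 with RLE factors and with DESeq2, -0.15 with library size only, -0.09 with no filter and -0.07 with the stricter filter, and ran from -0.04 to 0.05 when single libraries were left out. Bcl2l11 in dKO against WT under MI-503 became 0.03 with library size only. Bmf in dKO against WT under DMSO ran from -0.88 to 0.22 with 1 library left out, and Bad with MI-503 in WT from -0.18 to 0.19. Mcl1 in dKO against WT under DMSO passed with library size only (0.29), with no filter (0.15), with the stricter filter (0.14) and with only the groups compared (0.13). Library size alone shifted the median log2 change of all genes by 0.23 in dKO against WT under DMSO and by 0.17 for MI-503 in WT, and moved the share of calls that were higher in dKO under DMSO to 61.7%, against 45.3%. The interaction's share of higher calls was 52.9%, against 37.2% with library size only and 42.7% with no filter. The cause of each change was not tested. The stricter filter left Bmf untested. Same-numbered libraries did not deviate together throughout (correlations of -0.21, 0.136, -0.332 and 0.168), so the numbers were not taken as pairs. With the number as a replicate block, 8 members passed in dKO against WT under DMSO, 9 for MI-503 in WT, 8 for MI-503 in dKO, 7 for the interaction and 6 in dKO against WT under MI-503, and the block ended only the call of Bid in dKO (0.14, adjusted p = 0.0759). Depth limits Bmf and Bik, with 3 to 50 and 4 to 219 counts per library.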

Other observations

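Partners that bind family members in the cytosol or at mitochondria were tested in 12 genes. With MI-503, 6 rose and 3 fell in dKO, and 4 rose and 6 fell in WT. In dKO against WT, 0 rose and 4 fell under MI-503, and 0 rose and 9 fell under DMSO. Median log2 changes were 0.11 in dKO and -0.11 in WT with MI-503, and -0.08 under MI-503 and -0.34 under DMSO for dKO against WT. The background with MI-503 was 29.1% of all genes higher and 26.5% lower in dKO, and 35.2% and 33.7% in WT. For dKO against WT it was 26.6% and 28.5% under MI-503, and 29.6% and 35.8% under DMSO. Dynll1, a dynein light chain known to bind BIM, averaged 131.2 ± 3.55 CPM in dKO with MI-503, 180.1 ± 0.944 in dKO with DMSO, 122.3 ± 4.17 in WT with MI-503 and 372.7 ± 20.8 in WT with DMSO (SD, n = 2 each). Vdac1, a channel of the outer mitochondrial membrane, rose with MI-503 by 0.41 in dKO (adjusted p = 6.53e-06) and 0.69 in WT (adjusted p = 1.52e-08) by edgeR. Bag3, a co-chaperone that binds BCL-2, had 74.7 ± 3.43 CPM in dKO with MI-503, 70.9 ± 4.31 in dKO with DMSO, 76.6 ± 2.10 in WT with MI-503 and 178.1 ± 3.15 in WT with DMSO. For both Dynll1 and Bag3, WT with DMSO was the group that stood apart.

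Enzymes that set the stability of the MCL-1 protein were tested in 5 of 6 listed genes. With MI-503, 0 rose and 4 fell in dKO, and 0 rose and 5 fell in WT, with medians of -0.29 and -0.70. Of all genes, 26.5% fell in dKO and 33.7% in WT. Between dKO and WT, 1 rose and 3 fell under MI-503, and 0 rose and 4 fell under DMSO, with medians of -0.17 and -0.42. Of all genes, 28.5% were lower under MI-503 and 35.8% under DMSO. Usp9x, a deubiquitinase that protects MCL-1, averaged 281 ± 4.42 CPM in dKO with MI-503, 319.4 ± 11.5 in dKO with DMSO, 449.3 ± 10.7 in WT with MI-503 and 625.4 ± 11.3 in WT with DMSO. It was lower in dKO than in WT by a log2 fold change of -0.68 in MI-503 (adjusted p = 2.52e-08) and -0.97 in DMSO (adjusted p = 4.27e-10). Huwe1, a ubiquitin ligase for MCL-1, averaged 713.4 ± 22.3 CPM in dKO with MI-503, 872.7 ± 31.1 in dKO with DMSO, 823 ± 10.9 in WT with MI-503 and 1554 ± 30.2 in WT with DMSO. With MI-503, Usp9x had log2 changes of -0.19 in dKO (adjusted p = 0.0035) and -0.48 in WT (adjusted p = 4.14e-07), and Huwe1 of -0.29 in dKO (adjusted p = 0.00013) and -0.92 in WT (adjusted p = 6.75e-10).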
